A study of Rattus norvegicus with 200 samples.

Results

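The 8 genes described here carry fatty acids into mitochondria, break them down there or answer to fatty acids through the peroxisome proliferator-activated receptors (PPARs). They were taken by symbol from the table of 20361 genes, and all 8 were among the 14393 genes that passed the filter on low counts. RNA had been sequenced in bulk from cells labelled microglia, the resident macrophages of the brain, of adult male wild-type Wistar rats, an outbred laboratory stock. The rats received a high-fat diet (HFD) or chow, and each diet was given in the light phase only (light feeding), in the dark phase only (dark feeding) or at all times (ad libitum). The 6 groups were HFD light feeding (33 libraries), HFD dark feeding (33), HFD ad libitum (34), chow light feeding (33), chow dark feeding (33) and chow ad libitum (34). Libraries were made at Zeitgeber times (ZT, hours after lights on) 2, 6, 10, 14, 18 and 22, with 5 to 7 per group and time and a total of 200. Whether each came from its own rat is not stated in the labels, so p-values refer to the spread among these libraries only, part of which may be technical.

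Long-chain fatty acids enter mitochondria as carnitine esters. Cpt1a makes the ester on the outer membrane and Cpt2 turns it back into acyl-CoA inside. The acyl-CoA dehydrogenases Acadl and Acadm, for long and medium chains, take the first step of each round of beta-oxidation, and Hadha, the alpha subunit of the trifunctional protein, takes later steps. Pdk4 phosphorylates and switches off pyruvate dehydrogenase, so that less pyruvate from glucose enters the citric acid cycle. Angptl4 is a secreted inhibitor of lipoprotein lipase, and Ucp2 is a carrier of the inner mitochondrial membrane that is abundant in macrophages. Transcription of Cpt1a, Pdk4, Angptl4 and Ucp2 is known to rise when fatty acids activate PPARs, and Pdk4 also answers to glucocorticoids, the steroid hormones whose level in blood follows a daily rhythm.

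Total counts per library ran from 3777749 to 11636262, with a median of 7548305. The summed level of 12 oligodendrocyte markers had group medians of 14334 to 17062 CPM (counts divided by the library size after TMM scaling and set to the usual fixed total), and that of 15 neuron markers 4914 to 5272 CPM, while 16 measured microglia markers summed to 1182 to 1415 CPM. RNA of other brain cells was therefore present in every group, and the cell of origin of a transcript is not known from these libraries. In such bulk samples, fewer cells of a type and less RNA per cell cannot be told apart. The titles number the HFD and chow libraries separately, so diet and any batch that followed that numbering cannot be told apart. On HFD the title number was 46 or lower in 28 of 34 libraries fed ad libitum, and above 46 in every library with restricted feeding. Schedule comparisons with HFD ad libitum, and their interactions with diet, therefore followed title number too. Within a group, libraries of the same time often had neighbouring title numbers, so Zeitgeber time followed title number in part. Rhythms, phase swings and tests at single times thus cannot be fully told apart from a batch that followed the title numbers. In 4 libraries the clock gene Per2 stood apart from its group and time, and 3 lay more than 3 SD out on the first principal component. The 4 were 1 chow light feeding library each at ZT6 and ZT22 and 1 chow ad libitum library each at ZT2 and ZT6. The 3 were from chow light feeding at ZT18, chow ad libitum at ZT14 and HFD ad libitum at ZT6. The fits over all times were rerun without these 7 libraries.

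The 8 genes covered a wide range of levels, and the order of the highest was the steadiest. On the authors' FPKM scale, which divides by transcript length, the median over 200 libraries was 41.1 for Hadha, 16.1 for Ucp2, 6.17 for Acadm, 4.79 for Cpt1a, 3.22 for Acadl, 1.97 for Cpt2, 1.46 for Pdk4 and 0.64 for Angptl4. Hadha lay above Ucp2 in 198 of 200 libraries and Ucp2 above Acadm in 200. Lower down, Acadm lay above Cpt1a in 180 libraries, Cpt1a above Acadl in 187, Acadl above Cpt2 in 181, Cpt2 above Pdk4 in 136 and Pdk4 above Angptl4 in 168. Pdk4 averaged 14.6 counts and Angptl4 8.69 counts per library, with 1 library at 0 for Angptl4, so single libraries are imprecise for both. Means over the 36 combinations of group and time spread most for these low genes. Pdk4 means ran from 0.833 CPM in chow ad libitum at ZT2 to 3.74 CPM in HFD dark feeding at ZT14, a ratio of 4.48. The ratio of highest to lowest mean was 3.55 for Angptl4, 2.87 for Ucp2, 1.84 for Acadl, 1.54 for Cpt2, 1.5 for Acadm, 1.46 for Cpt1a and 1.19 for Hadha. By this ratio Hadha had the narrowest spread of the 8, and Pdk4 and Angptl4 had the widest. Hadha averaged 696 counts per library, against 14.6 for Pdk4 and 8.69 for Angptl4, and counting noise widens such a ratio for low genes. How much of the order is due to that noise was not tested.

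**Figure D1:**
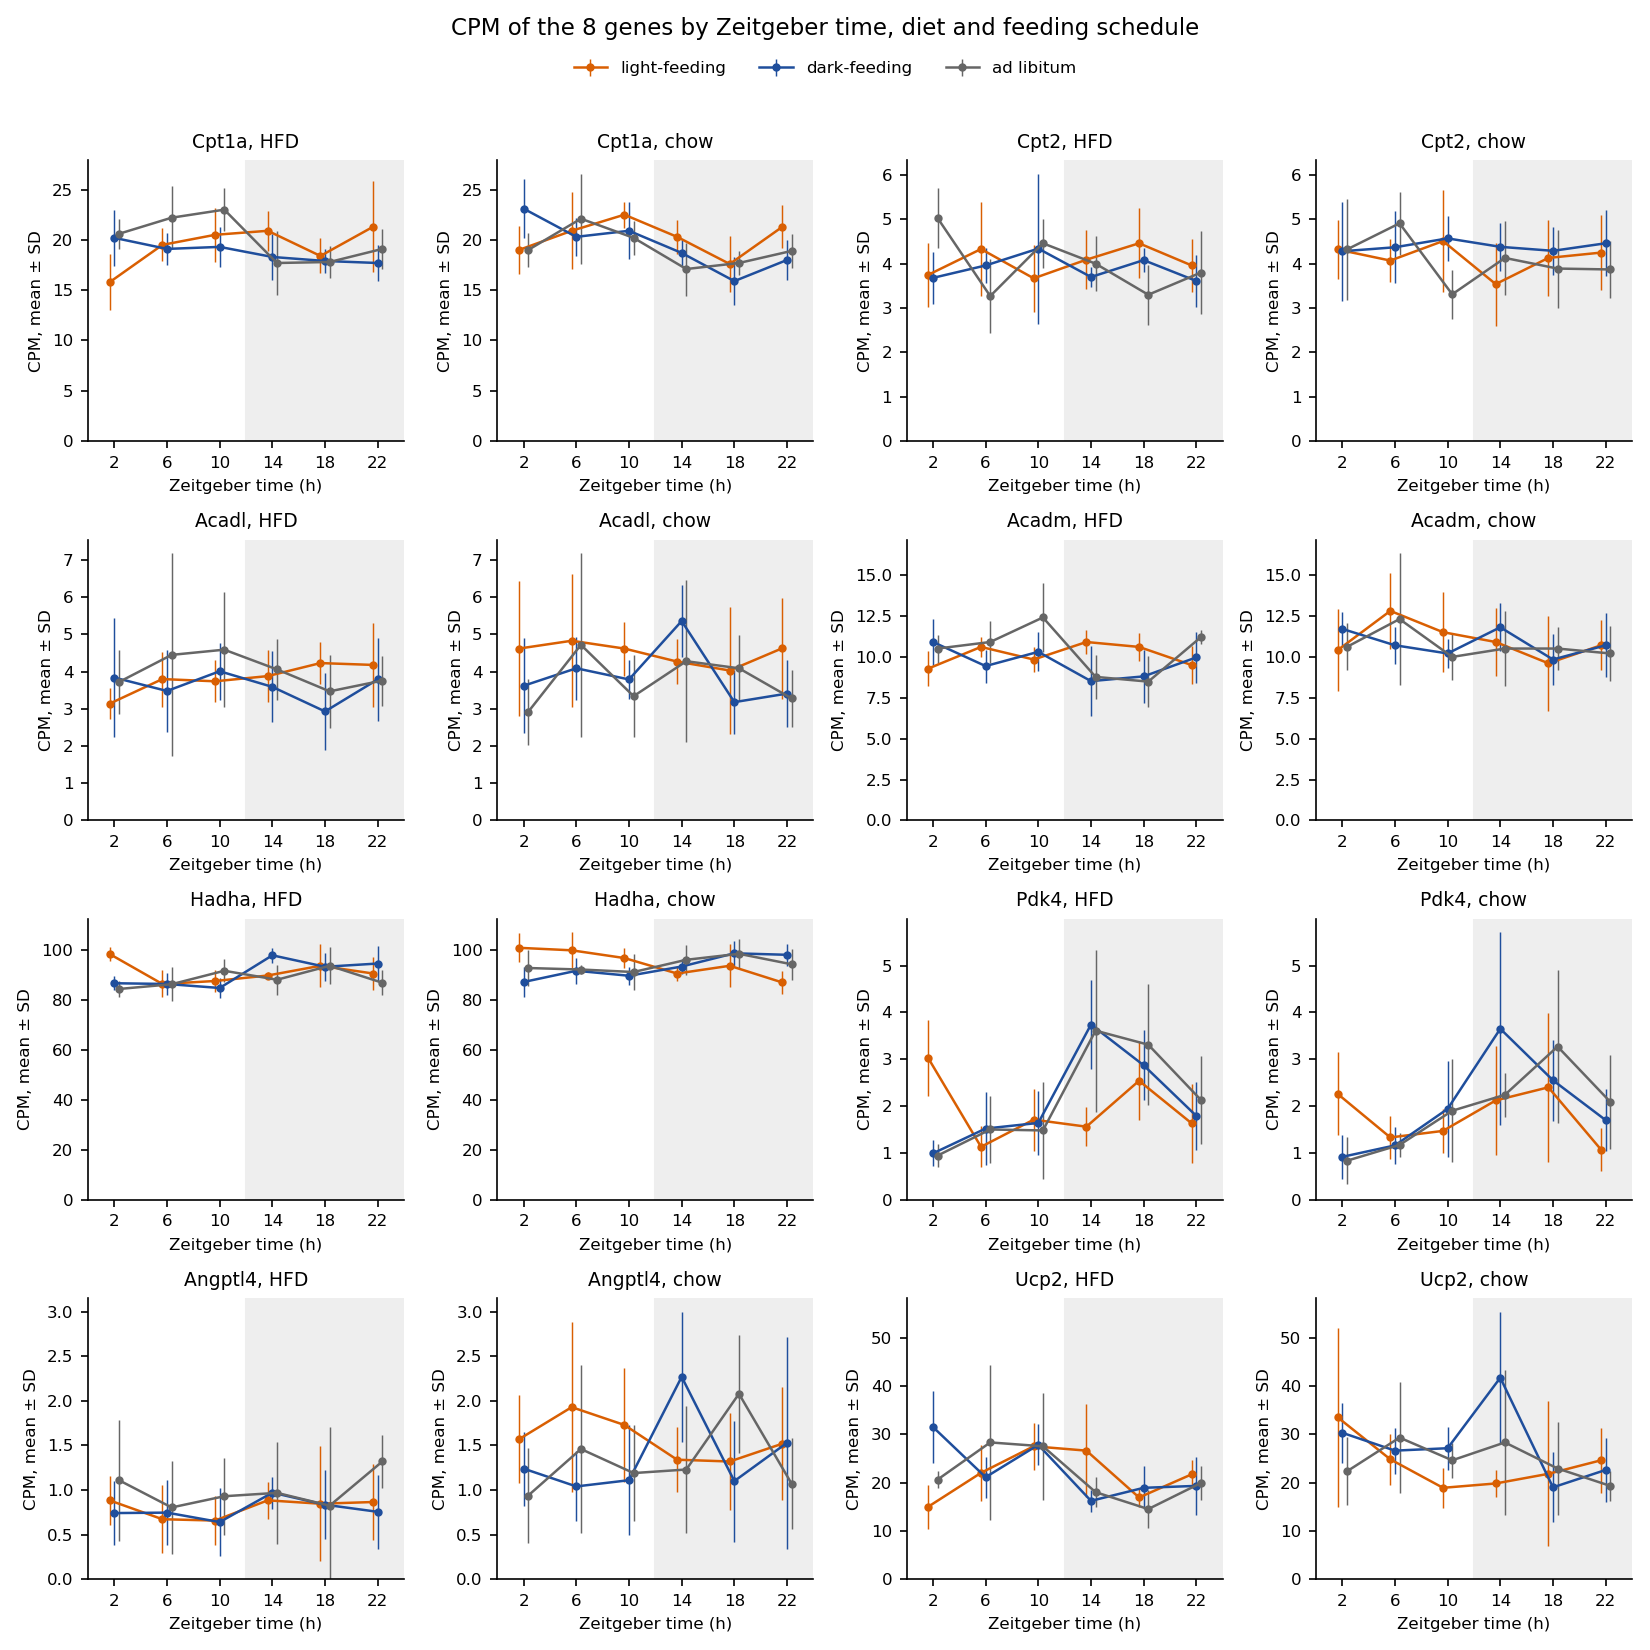
CPM (mean ± SD, 5 to 7 libraries per point, bars cut off at 0) of each gene against Zeitgeber time in hours, with an HFD panel left of a chow panel for each gene and the dark phase shaded. Pdk4 rises in the early dark phase under dark feeding and ad libitum feeding and has a high point at ZT2 under light feeding, while the Hadha means stay within a ratio of 1.19.

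The promoters of Pdk4 and Angptl4, the pair with the widest spread, are shown from RefSeq (build GRCr8, another build than that of the counts), which held promoters for 7 of the 8 genes. Each runs from 250 bases before to 50 bases after the start of transcription, 5′ to 3′ on the gene's strand, and capitals mark the 13 bases nearest to a PPAR response element. That element was searched as AGGTCA, any base N and AGGTCA again, on both strands. The Pdk4 promoter lies at chr4:34568280-34568579 (minus strand) and the Angptl4 promoter at chr7:15258632-15258931 (minus strand).
Pdk4: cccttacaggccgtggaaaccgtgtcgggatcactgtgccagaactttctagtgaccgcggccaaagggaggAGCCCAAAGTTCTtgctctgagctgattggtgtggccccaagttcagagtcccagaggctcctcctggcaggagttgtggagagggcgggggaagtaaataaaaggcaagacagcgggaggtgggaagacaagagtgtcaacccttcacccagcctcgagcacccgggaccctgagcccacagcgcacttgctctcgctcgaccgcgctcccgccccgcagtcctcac
Angptl4: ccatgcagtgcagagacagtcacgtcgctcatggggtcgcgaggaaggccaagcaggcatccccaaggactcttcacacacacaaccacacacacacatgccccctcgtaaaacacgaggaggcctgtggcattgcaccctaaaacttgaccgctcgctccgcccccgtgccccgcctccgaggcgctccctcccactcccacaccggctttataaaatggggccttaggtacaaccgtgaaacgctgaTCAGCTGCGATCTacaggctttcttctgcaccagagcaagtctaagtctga
The marked windows have 4 mismatches to the element in each, and 80.3% of 33469 rat promoters hold a window as near as that. With at most 2 mismatches, the element was in 0 of the 7 promoters and in 3.77% of all promoters, and the nearest of the 7 was Hadha with 3 mismatches. The E-box CACGTG, the letters bound by the clock proteins, was in 0 of the 7 and in 6.42% of all. These counts concern 300 bases only, and say nothing about sites elsewhere.

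Pdk4 had the largest daily rhythm of the 8 genes in the 4 groups fed in the dark phase or at all times, and it passed the test in these 4. The rhythm was fitted as a 24 h cosine, whose value here is the log2 change from trough to peak. In HFD dark feeding it was 1.66 with a peak at 15.4 h (adjusted p = 1.1e-04, edgeR), and in HFD ad libitum 1.80 at 16.2 h (adjusted p = 3.0e-04). In chow dark feeding it was 1.80 at 15.2 h (adjusted p = 3.2e-04), and in chow ad libitum 1.71 at 16.4 h (adjusted p = 0.00277). All 4 fitted peaks lay early in the dark phase. Under light feeding no 24 h rhythm passed the test, with 0.72 in HFD (adjusted p = 0.369) and 0.45 in chow (adjusted p = 0.602), where Ucp2 (0.70) and Angptl4 (0.48) had larger values that did not pass either.

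The share of all tested genes that passed the same test was 27.3% in HFD dark feeding, 19.5% in HFD ad libitum, 22.6% in chow dark feeding and 4.48% in chow ad libitum, and 0.868% and 20.2% under HFD and chow light feeding. Against this background 3 of the 8 genes passed in HFD dark feeding, 4 in HFD ad libitum, 2 in chow dark feeding, 1 in chow ad libitum and 0 in both light feeding groups. With an unadjusted p under 0.05, 1 gene passed under HFD light feeding and 2 under chow light feeding. DESeq2 called 0 and 1 of the 8 there, against 415 and 3296 of all genes. Beside these shares the counts for 8 genes do not stand apart as a group, and Pdk4 was the 1 gene of the 8 called in all 4 groups with dark or unrestricted feeding. With scores of cell type markers in the model, the Pdk4 rhythm lost its call in HFD dark feeding (1.30, adjusted p = 0.0831) and HFD ad libitum (1.24, adjusted p = 0.139). With a spline of title number it lost its call in both dark feeding groups (1.64, adjusted p = 0.16 in HFD; 1.63, adjusted p = 0.0929 in chow). In chow ad libitum it lost its call without ZT2 (1.30, adjusted p = 0.0854) or without ZT18 (1.53, adjusted p = 0.111). With time as 6 separate levels in place of a cosine, Pdk4 differed between times under HFD light feeding (adjusted p = 0.0155), and its cosine there passed without ZT22 (1.40, adjusted p = 0.0368).

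**Figure D2:**
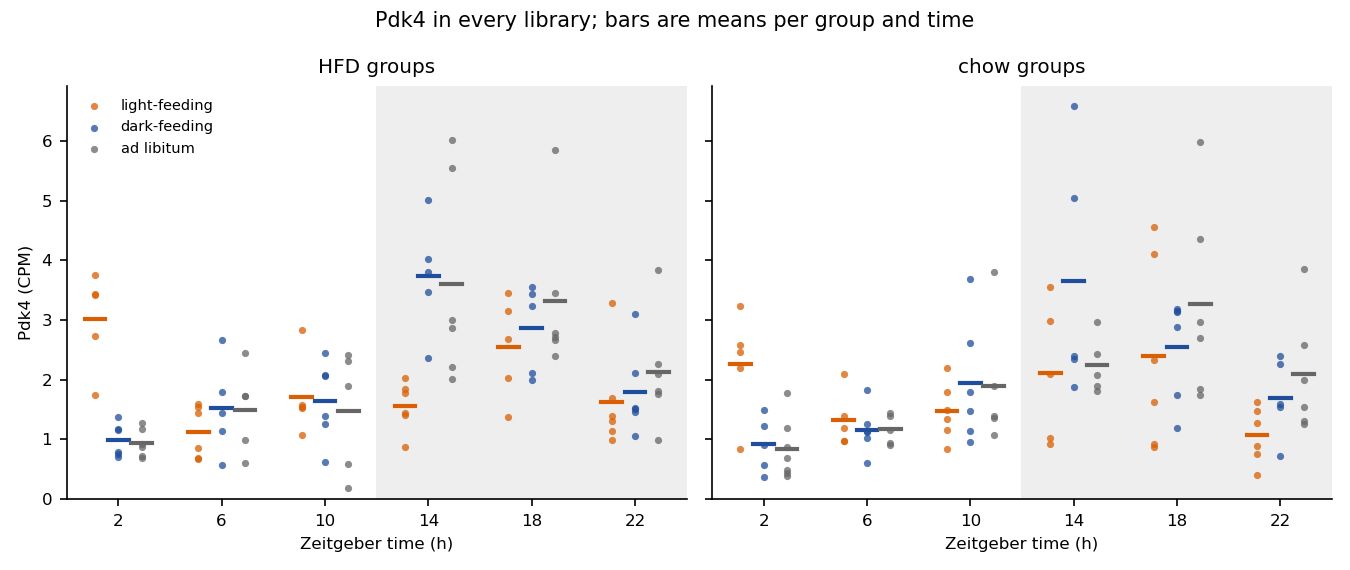
Pdk4 CPM in each library against Zeitgeber time, HFD groups left and chow groups right, with bars at the mean per group and time and the dark phase shaded. At ZT2 all 5 HFD light feeding libraries, at 1.74 CPM or more, lie above all 6 HFD dark feeding libraries, at 1.37 CPM or less, and at ZT14 the order is turned round.

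When food was moved to the light phase, the highest means of Pdk4 lay at ZT2 and ZT18. The HFD light feeding means at ZT2, 6, 10, 14, 18 and 22 were 3.02, 1.13, 1.71, 1.56, 2.54 and 1.63 CPM, against 0.99, 1.52, 1.64, 3.74, 2.87 and 1.79 CPM in HFD dark feeding. The chow light feeding means were 2.26, 1.33, 1.47, 2.12, 2.40 and 1.07 CPM, against 0.916, 1.16, 1.94, 3.65, 2.55 and 1.70 CPM in chow dark feeding. In both diets the light feeding mean was above that of dark feeding at ZT2 and below it at ZT14. Averaged over each phase, Pdk4 was 1.87 ± 0.806 CPM in the dark phase and 1.90 ± 1.01 CPM in the light phase of HFD light feeding (SD, n = 17 and 16), and 2.74 ± 1.12 and 1.38 ± 0.638 CPM in the same phases of HFD dark feeding (SD, n = 16 and 17).

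The difference between dark and light phase was then compared between light and dark feeding as a product term, here called the phase swing. For Pdk4 on HFD it was lower under light feeding, at a log2 of -0.97 (SE 0.30, adjusted p = 0.0139, edgeR). On chow it was -0.75 (SE 0.35, 95% interval -1.43 to -0.08, adjusted p = 0.0943), which did not pass. The phase swing passed for 26.8% of all genes on HFD and 28.5% on chow, and for 4 and 1 of the 8. On HFD the call for Pdk4 was lost without ZT2 (-0.33, adjusted p = 0.531), without ZT14 (-0.57, adjusted p = 0.231), with marker scores (-0.69, adjusted p = 0.223) and with a spline of title number (-0.69, adjusted p = 0.664). On chow it passed without ZT10 (-1.18, adjusted p = 0.0305), without ZT18 (-0.99, adjusted p = 0.0352) and on FPKM values (-0.92, adjusted p = 0.0291). A product of schedule with a cosine and a sine, chosen after the data had been seen, differed for Pdk4 on HFD (peak to trough of the difference 1.89, adjusted p = 0.00249) and did not pass on chow (1.40, adjusted p = 0.0581).

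Light and dark feeding were also compared at each time, a test chosen after the time courses had been seen. At ZT2 the 5 HFD light feeding libraries had 1.74, 2.74, 3.42, 3.43 and 3.76 CPM of Pdk4, against 0.70 to 1.37 CPM with a median of 0.967 in the 6 HFD dark feeding libraries. The groups did not overlap, and the light feeding level was 3.06-fold that of dark feeding (log2FC 1.61, SE 0.31, adjusted p = 2.7e-04). At ZT14 the 6 HFD light feeding libraries had 0.871 to 2.03 CPM with a median of 1.61, against 2.37, 3.47, 3.81, 4.02 and 5.01 CPM in the 5 HFD dark feeding libraries. Again the groups did not overlap, here with the light feeding level at 0.415 of that of dark feeding (log2FC -1.27, SE 0.29, adjusted p = 0.00799). With each library of that time left out in turn, both differences passed in 11 of 11 fits, at 1.5 to 1.75 and -1.40 to -1.14. With marker scores in the model the ZT2 difference was 1.16 and did not pass (adjusted p = 0.177), and the ZT14 difference was -1.31 and passed (adjusted p = 0.0284).

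On chow the same comparisons pointed the same way and did not pass. At ZT2 the chow light feeding libraries had 0.84, 2.19, 2.47, 2.58 and 3.24 CPM of Pdk4, against 0.366, 0.576, 0.907, 1.23 and 1.5 CPM in chow dark feeding. Of the 5 light feeding libraries 4 lay above every dark feeding library, and the groups overlapped through the lowest (log2FC 1.27, adjusted p = 0.0786). With 1 library left out in turn the difference was 1.09 to 1.48, and it passed in 1 of 10 fits, the one without that lowest library (1.47, adjusted p = 0.0456). At ZT14 chow light feeding had 0.931, 1.02, 2.09, 2.99 and 3.56 CPM, against 1.87, 2.35, 2.39, 5.04 and 6.59 CPM in chow dark feeding, with wide overlap (log2FC -0.76, adjusted p = 0.143). With marker scores in the model the chow differences were 1.54 at ZT2 (adjusted p = 0.0828) and -1.41 at ZT14 (adjusted p = 0.0806, edgeR). Neither passed. Whether the feeding effect at these times differs between the diets was not tested.

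The background of these tests by time was uneven. At ZT2, 6, 10, 14, 18 and 22 the share of all genes that passed was 19.9%, 0%, 0%, 4.41%, 0% and 13.2% on HFD and 7.49%, 2.34%, 2.92%, 22.5%, 0.0764% and 7.3% on chow. Among the 8 genes, 4 passed at ZT2 and 2 at ZT14 on HFD, and 1 each at ZT2, ZT14 and ZT22 on chow. Marker scores in the model also changed the calls over all genes, given here as higher and lower under light feeding. At ZT2 on HFD there were 52 and 45, in place of 1405 and 1466. At ZT14 on HFD there were 23 and 47, in place of 203 and 432. On chow they were 179 and 161 at ZT2 (414 and 664 without) and 65 and 46 at ZT14 (1521 and 1719 without). At ZT22 they were 1375 and 1066 on HFD (1000 and 902 without) and 649 and 520 on chow (364 and 686 without). The clock gene Per1, which glucocorticoids also induce, moved in the same direction as Pdk4 at both times on HFD. Per1 averaged 228 ± 27 CPM at ZT2 in HFD light feeding, against 111 ± 15.9 CPM in HFD dark feeding (log2FC 1.04, adjusted p = 7.9e-08), and 193 ± 35.7 CPM at ZT14, against 374 ± 36.2 CPM (log2FC -0.97, adjusted p = 1.1e-06; SD, n = 5 to 6). Fkbp5, also induced by glucocorticoids, averaged 19.8 ± 1.24 against 16.3 ± 1.55 CPM at ZT2 and 20.7 ± 0.956 against 24.9 ± 1.55 CPM at ZT14 in these groups. Tsc22d3, another such gene, averaged 62.2 ± 8.46 against 57.2 ± 10.1 CPM at ZT2 and 62.9 ± 7.05 against 63.7 ± 8.32 CPM at ZT14. Their differences carry no p here, and a part of glucocorticoids was not tested. Over the 36 combinations of group and time, the genes with a mean of at least 5 CPM whose mean log2 CPM was most like that of Pdk4 were Ptpn11 (r = 0.95), a tyrosine phosphatase, Per1 (r = 0.93) and Xkr8 (r = 0.90), out of 11350 genes compared. These are descriptions over combinations that share libraries and carry no p.

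Ucp2 also changed with the time of feeding, and it was correlated with the microglia markers of the same libraries among others, as given further on. At ZT2 the 5 HFD light feeding libraries had 10.7, 12.2, 12.8, 17.6 and 21.7 CPM, against 23.6 to 44.1 CPM with a median of 31.4 in the 6 HFD dark feeding libraries. The groups did not overlap, and the level under light feeding was 0.48 of that under dark feeding (log2FC -1.06, SE 0.20, adjusted p = 2.0e-04). On chow at ZT2 Ucp2 averaged 33.5 ± 18.5 CPM in light feeding and 30.3 ± 6.16 CPM in dark feeding (SD, n = 5 each; log2FC 0.13, adjusted p = 0.836). At ZT14 the order on HFD was turned round, with 26.6 ± 9.56 CPM in light feeding and 16.2 ± 2.27 CPM in dark feeding (SD, n = 6 and 5; log2FC 0.73, adjusted p = 0.0273). On chow at ZT14 the direction was opposite, with 16.0, 18.8, 19.5, 22.4 and 22.5 CPM in light feeding and 20.6, 38.9, 41.3, 52.5 and 55.1 CPM in dark feeding (log2FC -1.07, SE 0.29, adjusted p = 0.00564). With marker scores in the model the 3 differences that passed were -0.26, 0.17 and -0.41 on the log2 scale, and none of the 3 passed (adjusted p = 0.545, 0.634 and 0.337). Calls over all genes fell too at these times, as given above. With 1 library left out in turn the HFD ZT2 difference passed in 11 of 11 fits and the chow ZT14 difference in 10 of 10, but the HFD ZT14 difference in 6 of 11 (0.55 to 0.82).

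The daily rhythm of Ucp2 passed in HFD dark feeding (0.71, peak at 4.70 h, adjusted p = 0.0125) and HFD ad libitum (0.86, peak at 6.66 h, adjusted p = 0.0052), both with a peak in the light phase. It did not pass under HFD light feeding (0.62, adjusted p = 0.126) or in the chow groups (0.49 to 0.70, adjusted p = 0.0811 to 0.376). It passed under HFD light feeding without ZT22 (1.14, adjusted p = 0.0127) and with time as separate levels (0.85, adjusted p = 0.0206). It also passed in chow light feeding without ZT18 (0.71, adjusted p = 0.0382) and chow dark feeding with time as separate levels (1.11, adjusted p = 0.00445). With marker scores the rhythm lost its call in HFD dark feeding (0.17, adjusted p = 0.643) and kept it in HFD ad libitum (0.50, adjusted p = 0.0408). It was also lost with title number in both groups (0.36 and 0.56), without ZT2 (0.45) or ZT14 (0.57) in HFD dark feeding and without ZT18 (0.71, adjusted p = 0.151) in HFD ad libitum. The phase swing of Ucp2 on HFD was 0.57 (SE 0.19, adjusted p = 0.0214), and it was -0.31 with marker scores (adjusted p = 0.17), 0.54 with title number (adjusted p = 0.52), 0.23 without ZT2 and 0.34 without ZT14, none of which passed. On chow the phase swing of Ucp2 was -0.05 (SE 0.25, adjusted p = 0.91). The genes most like Ucp2 in pattern were Tmsb4x, which encodes an actin-binding peptide, Clic1, a chloride channel protein, and Eef1a1, a translation elongation factor, each at r = 0.93.

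Among the oxidation genes, changes over the day and with feeding time were small. Cpt1a, the gate of the pathway, had a rhythm of 0.37 with a peak at 6.23 h in HFD ad libitum (adjusted p = 0.00556) and of 0.41 at 5.54 h in chow dark feeding (adjusted p = 0.00494). In HFD ad libitum Cpt1a averaged 18.2 ± 2.28 CPM in the dark phase and 21.9 ± 2.37 CPM in the light phase (SD, n = 18 and 16), and in chow dark feeding 17.5 ± 2.24 and 21.4 ± 2.67 CPM (SD, n = 16 and 17). Without ZT18 both calls were lost (0.40, adjusted p = 0.0733 and 0.31, adjusted p = 0.126), as they were with marker scores (0.14, adjusted p = 0.488 and 0.37, adjusted p = 0.0535), and the first also with title number (0.36, adjusted p = 0.0695). Under light feeding the Cpt1a rhythm passed without ZT22 (0.43 on HFD, adjusted p = 0.0368, and 0.40 on chow, adjusted p = 0.0272). Acadm had a rhythm of 0.38 at 5.17 h in HFD ad libitum (adjusted p = 0.0429), lost without ZT2, ZT14 or ZT18 (0.49, 0.31 and 0.25) with marker scores (0.07, adjusted p = 0.943), with title number (0.28, adjusted p = 0.521) and without the libraries that stood apart (0.36, adjusted p = 0.0612). Hadha had one of 0.19 at 17.8 h in HFD dark feeding (adjusted p = 0.00956), lost with marker scores (0.12, adjusted p = 0.462) and with title number (0.19, adjusted p = 0.534). DESeq2 also called a Hadha rhythm in chow light feeding (0.16, adjusted p = 0.0412) and chow dark feeding (0.14, adjusted p = 0.0229). Cpt2 and Acadl passed in no group, with values of 0.05 to 0.26 for Cpt2 and 0.24 to 0.43 for Acadl, and neither did Angptl4 with 0.33 to 0.67. Cpt2 passed in HFD ad libitum without ZT6 (0.67, adjusted p = 0.0147) or with time as separate levels (adjusted p = 0.0367).

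Hadha, the most abundant of the 8, was the one whose phase swing passed on both diets. On chow, Hadha averaged 90.5 ± 6.33 CPM in the dark phase and 99.2 ± 5.64 CPM in the light phase under light feeding (SD, n = 17 and 16), and 97.0 ± 4.64 and 89.8 ± 5.01 CPM under dark feeding (SD, n = 16 and 17). On chow the mean was thus higher in the phase with food under both schedules. On HFD it averaged 91.3 ± 5.9 CPM in the dark phase and 90.6 ± 6.89 CPM in the light phase under light feeding (SD, n = 17 and 16). Under HFD dark feeding it averaged 95.3 ± 5.6 and 86.1 ± 3.64 CPM in these phases (SD, n = 16 and 17). The phase swing was -0.24 on chow (SE 0.04, adjusted p = 3.2e-05) and -0.13 on HFD (SE 0.04, adjusted p = 0.0198). On chow it passed with marker scores too (-0.17, adjusted p = 0.00329), while on HFD it did not (-0.07, adjusted p = 0.502), nor with title number (-0.21, adjusted p = 0.26) or without ZT2 (-0.08) or ZT14 (-0.10). At ZT2 Hadha had 95.5, 97.2, 98.1, 99.4 and 103 CPM in HFD light feeding, against 82.8 to 90.8 CPM in the 6 HFD dark feeding libraries, with no overlap (log2FC 0.18, adjusted p = 0.00769). At ZT2 on chow it had 96.0, 97.8, 97.9, 103 and 110 CPM in light feeding, against 78.0, 85.8, 87.9, 91.3 and 93.4 CPM in dark feeding, also with no overlap (log2FC 0.21, adjusted p = 0.0144). With 1 library left out in turn it passed in 11 of 11 fits on HFD and in 8 of 10 on chow (0.17 to 0.23), and with marker scores on chow (0.24, adjusted p = 0.0162) but not on HFD (0.22, adjusted p = 0.122). At ZT22 the chow light feeding mean of 87.1 ± 4.63 CPM lay below the 98.2 ± 4.36 CPM of chow dark feeding (SD, n = 6 and 5; log2FC -0.17, adjusted p = 0.0385), and this difference did not pass with marker scores (-0.10, adjusted p = 0.208).

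The phase swing of Cpt1a was 0.25 on HFD (SE 0.09, adjusted p = 0.0397) and 0.20 on chow (SE 0.09, adjusted p = 0.0828). At ZT2 Cpt1a had 12.7, 14.1, 15.9, 16.4 and 20.0 CPM in HFD light feeding, against 15.8 to 24.1 CPM with a median of 20.7 in HFD dark feeding (log2FC -0.34, SE 0.11, adjusted p = 0.0214), with overlap. That difference passed in 8 of 11 fits with 1 library left out (-0.44 to -0.28), and did not with marker scores (-0.39, adjusted p = 0.247). The swing on HFD was lost without the filter on low counts (0.25, adjusted p = 0.052), without ZT2 (0.12), ZT14 (0.24) or ZT22 (0.19), and with marker scores (0.21) or title number (0.04). The swing on chow passed with marker scores (0.32, adjusted p = 0.00279), title number (0.41, adjusted p = 0.0321) or without ZT10 (0.28, adjusted p = 0.046). Angptl4 had a swing of -0.77 on chow (SE 0.33, adjusted p = 0.0737), which passed without ZT18 (-0.98, adjusted p = 0.0324), and of -0.03 on HFD (95% interval -0.68 to 0.62). Acadm had 0.23 on HFD (adjusted p = 0.0886), which passed without ZT6 (0.31, adjusted p = 0.0424) or ZT22 (0.35, adjusted p = 0.0158).

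HFD was set against chow within each schedule to ask what the diet did to these genes. The clearest change was in Angptl4, which was lower on HFD under both restricted schedules. Under light feeding Angptl4 had 0.122 to 1.96 CPM with a median of 0.806 on HFD, against 0.677 to 3.04 CPM with a median of 1.41 on chow (n = 33 each). Under dark feeding it had 0 to 1.39 CPM with a median of 0.791 on HFD, against 0.135 to 3.52 CPM with a median of 1.31 on chow (n = 33 each). The groups overlapped in both. The HFD level was 0.521 of chow under light feeding (log2FC -0.94, SE 0.15, adjusted p = 8.9e-07) and 0.583 of chow under dark feeding (log2FC -0.78, SE 0.18, adjusted p = 2.9e-04), and HFD was lower at 6 of 6 times in each. Under ad libitum feeding it was 1.00 ± 0.581 CPM on HFD and 1.32 ± 0.719 CPM on chow (SD, n = 34 each), and the difference did not pass (log2FC -0.36, 95% interval -0.74 to 0.03, adjusted p = 0.192). The interaction of diet with light feeding was -0.57 for Angptl4 (SE 0.25, adjusted p = 0.136), so the effects were not shown to differ between schedules, though the interaction passed without ZT18 (-0.87, adjusted p = 0.0115).

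**Figure D3:**
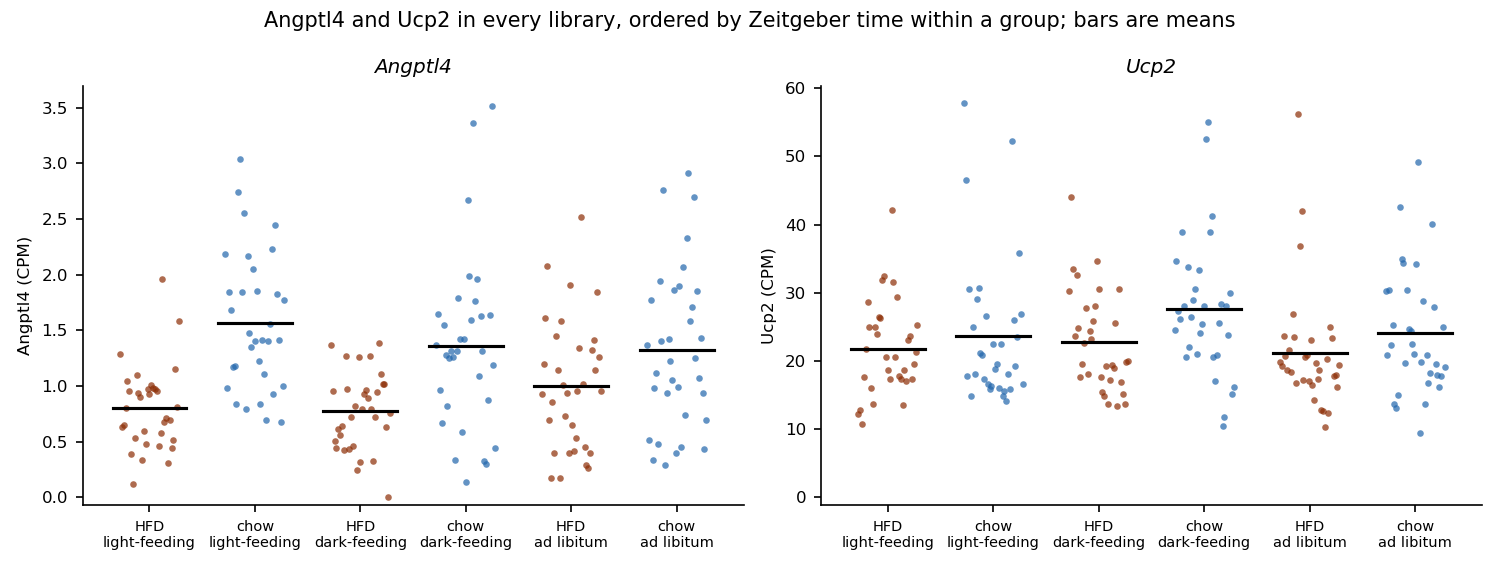
CPM of Angptl4 and Ucp2 in each library by group, ordered by Zeitgeber time within a group, HFD in brown and chow in blue, with bars at the group means. Angptl4 means are 0.802 and 0.775 CPM on HFD under light and dark feeding, against 1.57 and 1.36 CPM on chow, with overlapping ranges.

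Many tested markers of blood vessels, astrocytes, ependyma and erythrocytes were also lower on HFD in these comparisons. Of all genes, 50.5% passed for diet under light feeding and 46% under dark feeding, in both directions. Under light feeding 9 of 9 tested endothelial markers and 6 of 6 mural cell markers passed as lower on HFD, and of 12 astrocyte markers 11 passed as lower and 1 as higher. Under dark feeding 7 of 9, 6 of 6 and 11 of 12 passed, each of them lower on HFD. Of 7 markers of ependyma and choroid plexus 6 passed under light and 4 under dark feeding, and of 6 erythrocyte markers 3 and 6, all lower on HFD. The summed level of the endothelial markers was 22.1 to 54.4 CPM on HFD and 37.5 to 109 CPM on chow under light feeding, and 27.4 to 53.6 CPM on HFD and 17.6 to 95.6 CPM on chow under dark feeding. That of the mural cell markers was 28.4 to 55.4 and 39.5 to 198 CPM under light feeding, and 28.8 to 52.4 and 27.9 to 114 CPM under dark feeding, HFD before chow in each. Astrocyte markers summed to 1409 to 1882 and 1407 to 2504 CPM under light feeding, and 1219 to 1811 and 1309 to 2191 CPM under dark feeding. Neuron markers went the other way, with a median sum of 5272 CPM on HFD and 4914 CPM on chow under light feeding. Under dark feeding their medians were 5149 and 4921 CPM. Emcn, Rgs5 and Kcnj8 were under the filter on low counts, and Ly6c1 and Slco1a4 were not analysed here. With the scores of 6 marker lists in the model, the Angptl4 difference was -0.40 under light feeding (adjusted p = 0.24) and turned to 0.25 under dark feeding (adjusted p = 0.665).

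The other diet differences that passed were smaller, with HFD at 0.823 to 0.96 of chow. Under light feeding 3 of the 8 genes passed, against 50.5% of all genes, and under dark feeding 4, against 46%. All of these were lower on HFD, as were 3735 of the 7270 and 3359 of the 6627 genes called over the whole table. Besides Angptl4, Acadl was lower under light feeding, at 3.84 ± 0.767 CPM on HFD and 4.49 ± 1.32 CPM on chow (SD, n = 33 each; log2FC -0.23, SE 0.09, adjusted p = 0.0275), and so was Hadha, at 91.0 ± 6.31 and 94.7 ± 7.36 CPM (log2FC -0.06, SE 0.02, adjusted p = 0.0389). Under dark feeding Ucp2 was 22.8 ± 7.28 CPM on HFD and 27.5 ± 9.94 CPM on chow (log2FC -0.28, SE 0.10, adjusted p = 0.0201), and lower in the mean at 3 of 6 times. Acadm, at 9.71 ± 1.62 and 10.8 ± 1.46 CPM (log2FC -0.16, SE 0.05, adjusted p = 0.0102), and Cpt2, at 3.89 ± 0.813 and 4.39 ± 0.677 CPM (log2FC -0.17, SE 0.06, adjusted p = 0.0218), were also lower. Of 16 microglia markers 9 passed under light feeding and 10 under dark feeding, each of them lower on HFD, and of 12 oligodendrocyte markers 8 passed under each, all higher on HFD. Under ad libitum feeding 1 of 8 passed, against 20.3% of all genes. That gene was Hadha, at 88.6 ± 6.16 CPM on HFD and 94.3 ± 6.17 CPM on chow (SD, n = 34 each; log2FC -0.10, SE 0.02, adjusted p = 0.00304).

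Single times decided several of these calls. Without ZT14, the time at which chow dark feeding had its highest Ucp2 level, the differences under dark feeding were -0.09 for Ucp2 (adjusted p = 0.438), -0.11 for Acadm (adjusted p = 0.0982) and -0.16 for Cpt2 (adjusted p = 0.072), and Hadha passed at -0.06 (adjusted p = 0.026). Ucp2 also lost its call without ZT6 (-0.27, adjusted p = 0.0628) and Cpt2 without ZT22 (-0.15, adjusted p = 0.0883). Under light feeding Acadl lost its call without ZT2, ZT6 or ZT10 (-0.17, -0.20 and -0.21) and Hadha without any of ZT2, ZT6, ZT10 and ZT14 (-0.06 to -0.03), while Acadm passed without ZT18 (-0.16, adjusted p = 0.0165). The Hadha difference there was also not called by DESeq2 (-0.05, adjusted p = 0.0546), with its size factors in edgeR (-0.06, adjusted p = 0.0563) or without the filter on low counts (-0.06, adjusted p = 0.0532). With marker scores none of the 8 genes passed for diet under any schedule. The called differences of Ucp2 under dark feeding (0.12) and Acadl under light feeding (0.18) turned in sign there. Pdk4 and Cpt1a did not pass for diet under any schedule, except Cpt1a under light feeding on FPKM values (-0.12, adjusted p = 0.0373). For Pdk4 the 95% intervals were -0.19 to 0.40 under light, -0.21 to 0.34 under dark and -0.14 to 0.46 under ad libitum feeding, and for Cpt1a -0.15 to 0.03, -0.13 to 0.03 and -0.02 to 0.14.

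**Figure D4:**
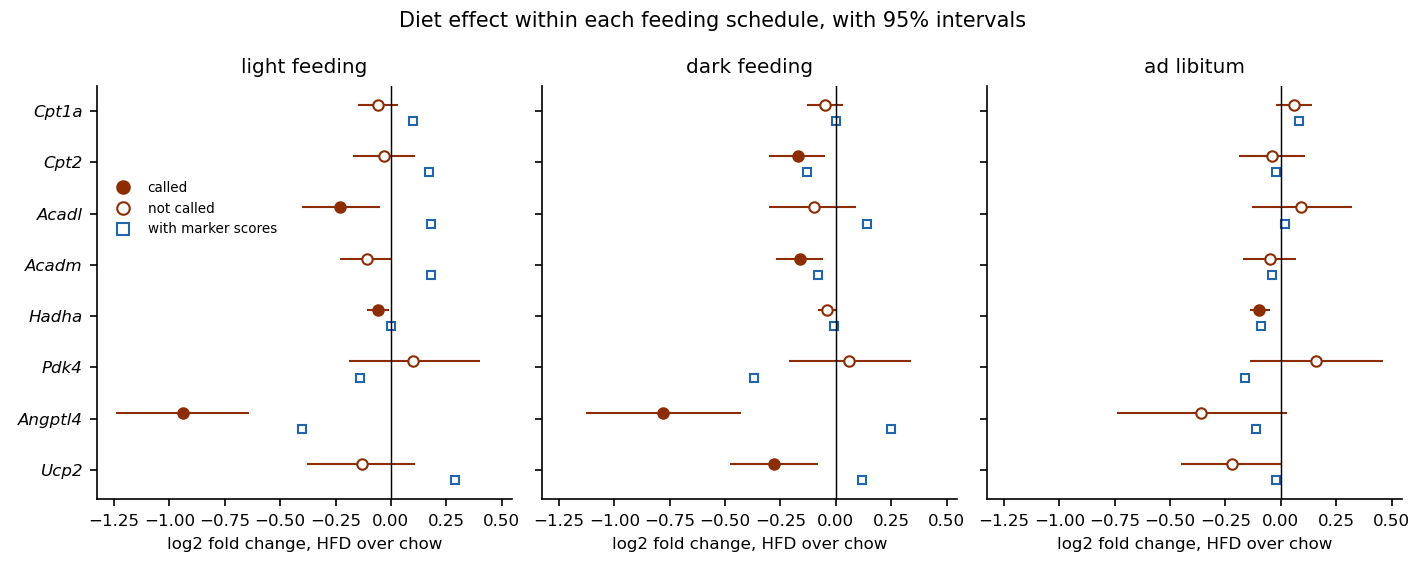
Log2 fold change of HFD over chow with its 95% interval for each gene under light, dark and ad libitum feeding, filled where the adjusted p was under 0.05, and the value with marker scores in the model as an open square. Angptl4 stands farthest from 0 under light (-0.94) and dark feeding (-0.78), and nears or crosses 0 with marker scores (-0.40 and 0.25).

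Averaged over the day, none of the 8 genes passed for the feeding schedule. Light feeding against dark feeding, light feeding against ad libitum and dark feeding against ad libitum each called 0 of 8 on HFD, against 0.0834%, 10.6% and 4.68% of all genes, and 0 of 8 on chow, against 0%, 1.67% and 0% of all genes. DESeq2 also called 0 of 8 in each of the 6. On chow, where edgeR called 0 genes for light against dark feeding and for dark feeding against ad libitum, DESeq2 called 0 and 1, and 616 and 1714 genes had edgeR p-values under 0.05 before adjustment. With an unadjusted p under 0.05, Acadl was higher in chow light feeding than in chow dark feeding (log2FC 0.22, p = 0.028) and chow ad libitum (0.27, p = 0.0213), and Cpt1a (-0.09, p = 0.0303) and Angptl4 (-0.37, p = 0.0496) were lower in HFD dark feeding than in HFD ad libitum (edgeR). The widest 95% interval of the 6 comparisons for Pdk4 was -0.43 to 0.28, for light feeding against ad libitum on chow. The interactions of diet with dark feeding and with light feeding called 0 of 8, against 0.862% and 9.58% of all genes, with 0 and 2 genes at an unadjusted p under 0.05 and 0 by DESeq2. A difference in rhythm between HFD and chow under ad libitum feeding passed for none of the 8 (0% of all genes, 2316 genes at an unadjusted p under 0.05, of which 0 were among the 8, and 57 genes by DESeq2). The largest fitted difference of the 8, from trough to peak, was 0.96 for Angptl4 (p = 0.222, edgeR). No interval is given for it, so the test does not show that the rhythms were alike.

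The neighbouring genes of the pathway were read from lists. No values with marker scores are given for these list genes, here or in the next paragraph. Most tested astrocyte, endothelial and mural cell markers were lower on HFD in the same comparisons, as given above. The part of cell types in the list differences was not tested, and diet cannot be told apart from a batch that followed the title numbering. For diet under light feeding, against 50.5% of all genes, 10 of 16 other mitochondrial beta-oxidation genes passed, 1 higher and 9 lower on HFD, with a median log2FC of -0.12 against -0.01 over all genes. Etfb, which carries electrons away from the dehydrogenases, was lower (log2FC -0.40, adjusted p = 3.5e-06), as were the thiolase Acaa2 (-0.40, adjusted p = 0.00122) and the very-long-chain dehydrogenase Acadvl (-0.11, adjusted p = 0.00136). Under dark feeding 4 of 16 passed, 1 higher and 3 lower, against 46% of all genes. Of 13 other PPAR targets that passed the filter, 8 passed under light feeding, 1 higher and 7 lower, and 7 under dark feeding, 1 higher and 6 lower. The fatty acid binding protein Fabp5 (-0.71 under light and -0.67 under dark feeding) and the desaturase Fads2 (-0.47 and -0.41) were lower, and the lipoprotein receptor Vldlr was higher (0.22 and 0.25). Ppara, the receptor best known for driving these genes in liver, was lower under light feeding, at 3.00 CPM on HFD and 4.04 CPM on chow (log2FC -0.43, adjusted p = 2.2e-05). Counts for diet over the list of PPAR receptors and partners that holds Ppara are not given here, and a part of Ppara in the other differences was not tested.

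Genes that supply or restrain the pathway showed both directions, again against 50.5% of all genes called under light feeding and 46% under dark feeding. Of 12 genes of fatty acid activation and the carnitine shuttle, 5 passed under light feeding and 5 under dark feeding, 4 higher and 1 lower on HFD in each. The acyl-CoA synthetases Acsl3 (0.22 and 0.17) and Acsl4 (0.23 and 0.24) were higher under both schedules. Of 11 genes of malonyl-CoA and AMPK control, 9 passed under light feeding, 4 higher and 5 lower, and 8 under dark feeding, 5 higher and 3 lower. The pair of acetyl-CoA carboxylases went opposite ways. Acaca, the cytosolic enzyme of lipid synthesis, was higher (0.24 and 0.27), and Acacb, whose malonyl-CoA blocks Cpt1 at the mitochondrion, was lower (-0.94, adjusted p = 3.2e-09 and -0.72, adjusted p = 2.8e-06). The part of cell types in these differences was not tested either. Of 13 genes around pyruvate dehydrogenase, 5 passed under each, 3 higher and 2 lower, with Pdk2 higher (0.15) and Pdk1 lower (-0.16) under light feeding. For the day, Pex11a, a peroxisome division gene, had a rhythm in all 6 groups, of 1.24 in HFD dark feeding and 1.55 in HFD ad libitum, with peaks at 16.3 and 16.7 h, and of 1.00 and 1.13 in HFD and chow light feeding, with peaks at 19.6 and 19.9 h. Of 9 glucocorticoid-induced genes, 3, 6 and 6 were rhythmic in HFD light, dark and ad libitum feeding and 4, 7 and 5 in the same schedules on chow, against 0.868%, 27.3% and 19.5% of all genes on HFD and 20.2%, 22.6% and 4.48% on chow. Sgk1 of that list peaked at 16.0 h in HFD dark feeding (1.51, adjusted p = 9.2e-07) and at 19.3 h in HFD light feeding (0.99, adjusted p = 0.012).

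Within a group and time, the 8 genes followed the cell types in the library to different degrees. The log2 CPM of each gene, with group and time means removed, was set against scores of 6 marker lists and against the other 7 genes over 200 libraries, 76 relations in all, of which 39 passed by Pearson's r and 33 by Spearman's rho at an adjusted p under 0.05 (permutation within group and time, 100000 resamples). Ucp2 followed the microglia score most closely (r = 0.73, rho = 0.68, permutation p = 1e-05 for both, the smallest that these resamples can give; r = 0.70 without the 2 libraries farthest from the median score). Acadl followed it as well (r = 0.54, rho = 0.51, permutation p = 1e-05 for both; r = 0.52 without 2 libraries). Neither relation was to microglia alone. Ucp2 also followed the endothelial, astrocyte and oligodendrocyte scores (r = 0.48, 0.47 and 0.40, rho = 0.47, 0.43 and 0.33). Acadl also followed the astrocyte, oligodendrocyte and endothelial scores (r = 0.51, 0.44 and 0.44, rho = 0.48, 0.38 and 0.43). The permutation p of these 6 were 1e-05 to 2.0e-05, and r was 0.36 to 0.47 without 2 libraries. Angptl4 followed the endothelial (r = 0.52, rho = 0.50), mural cell (r = 0.51, rho = 0.50) and astrocyte scores (r = 0.48, rho = 0.47), each at a permutation p of 1e-05, with r of 0.52, 0.50 and 0.47 without 2 libraries. Against the microglia score Angptl4 had an r of 0.15 and a rho of 0.13 (permutation p = 0.0513 and 0.107). Cpt1a and Acadm followed the astrocyte score (r = 0.41 and 0.42, rho = 0.36 for both, permutation p = 1e-05; r = 0.38 and 0.37 without 2 libraries). Hadha ran against the oligodendrocyte (r = -0.42, rho = -0.35) and microglia scores (r = -0.36, rho = -0.31), with permutation p of 1e-05 to 8.0e-05 and r of -0.38 and -0.33 without 2 libraries. Pdk4 was weakly tied to the markers, at r = 0.28 with oligodendrocytes and -0.28 with neurons (rho = 0.28 and -0.28, permutation p = 2.7e-04 to 3.6e-04; r = 0.24 and -0.25 without 2 libraries), and the values for Cpt2 ran from 0.01 to 0.17. The low counts of Pdk4 limit how large such values can be.

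**Figure D5:**
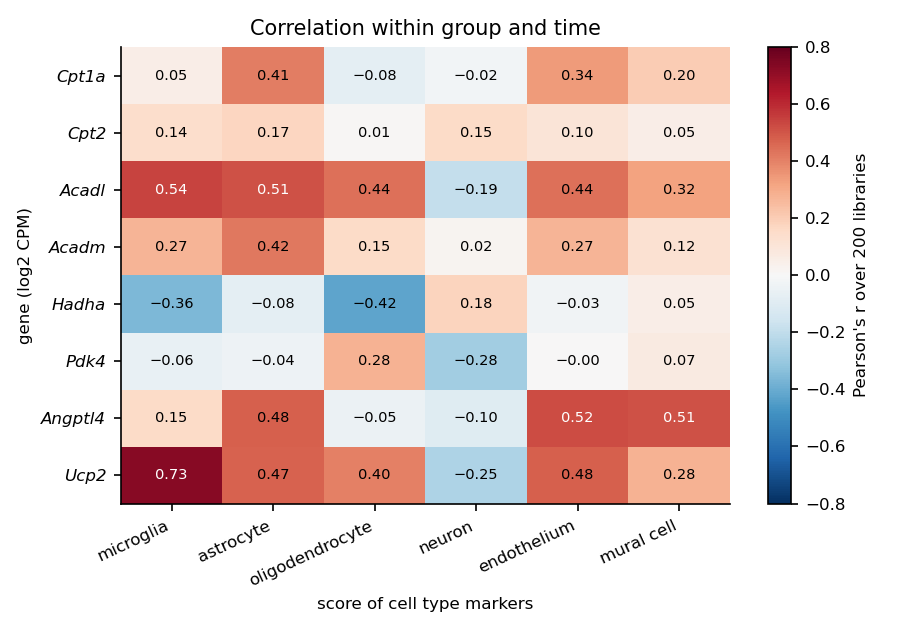
Pearson's r, over 200 libraries with group and time means removed, between log2 CPM of each gene (rows) and the score of each marker list (columns), red for positive and blue for negative. Ucp2 with microglia (0.73) and Angptl4 with endothelium (0.52) and mural cells (0.51) stand out, while every value for Pdk4 lies between -0.28 and 0.28.

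Among the 8 genes themselves, 13 of 28 pairs passed by r. The closest pair was Acadl and Ucp2 (r = 0.56, rho = 0.49, permutation p = 1e-05 for both; r = 0.53 without 2 libraries), followed by Acadl and Acadm (r = 0.42, rho = 0.36, permutation p = 1e-05; r = 0.36). Hadha ran against Ucp2 (r = -0.35, rho = -0.28, permutation p = 1e-05 and 1.6e-04; r = -0.29). Pdk4 passed with none of the other 7, the values lying between -0.13 and 0.12. In their means over the 36 combinations, Angptl4 was most like Pebp1 and Gjb6 (r = 0.88 each) and Pygm (r = 0.87), Gjb6 being a connexin of astrocytes that is also on the astrocyte list. Hadha was most like Fuk and Zc3h13 (r = 0.87 each), Cpt1a like Taok3 (r = 0.85), Acadl like Ppp1r17 (r = 0.79), Acadm like Ezr, Rassf3 and Prkcd (r = 0.79 each) and Cpt2 like Hmgb3 (r = 0.59), the loosest of the 8.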

How the data were processed

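The authors deposited estimated counts per gene, of which 8.03% of entries were not whole numbers, and a second table of FPKM for 17611 genes. Per the labels' protocols RNA was purified on micro columns, enriched for mRNA on beads and read as strand-specific libraries on a DNBSEQ-G400; the build was Rnor 6.0 per the submitters' processing notes, and for the aligner and counter the sources used here give no name. Counts were rounded, scaled by TMM and tested with edgeR 4.0.16 (R 4.3.3, quasi-likelihood, Benjamini-Hochberg over all 14393 genes that filterByExpr left of 20361, adjusted p under 0.05). Diet and schedule fits had time as a covariate, rhythms used a 24 h cosine within each group, and log2 CPM used a prior count of 2. Alternatives were DESeq2 1.42.0 and its size factors, no filter on low counts, limma 3.58.1 on log2 FPKM with pseudocounts of 0.1 and 1, marker scores, a spline of title number with 3 df, title numbers above 46, time as separate levels and each time left out. Chosen after seeing the data were the fit of schedule with cosine and sine, that without libraries standing apart, and the tests at single times. The steps were tested on simulated data. Correlations, values and figures were made with Python 3.11.15, numpy 2.4.6, scipy 1.17.1, pandas 2.3.3 and matplotlib 3.10.9. Of the other genes, up to 4 per list and comparison with the smallest adjusted p were eligible to be named. The 8 genes and all lists were chosen with earlier results of these data known. Depth was 3777749 to 11636262 counts per library, and no column was left unused.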

Additional observations from a re-analysis of the deposited data

Results flagged for a closer look

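Of 288 sets of one gene in one group at one time, 21 held a library whose gap to its nearest neighbour was large for the range of its set, where chance flags about 5% of sets. For Pdk4 the highest libraries of HFD light feeding at ZT10 (2.84 CPM) and ZT22 (3.28 CPM) and of HFD ad libitum at ZT18 (5.85 CPM) stood out. For Angptl4 these were the lowest library of HFD light feeding at ZT14 (0.46 CPM), its highest at ZT18 (1.96 CPM) and the highest of HFD ad libitum at ZT18 (2.52 CPM). For Ucp2 they were the highest of HFD dark feeding at ZT22 (30.6 CPM), of HFD ad libitum at ZT6 (56.2 CPM) and of chow light feeding at ZT18 (52.2 CPM).

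Among the oxidation genes, Cpt1a had a high library in chow light feeding at ZT2 (23.3 CPM), and Cpt2 had one in chow light feeding at ZT10 (6.75 CPM) and in chow dark feeding at ZT2 (6.22 CPM). Acadl had high libraries in HFD ad libitum at ZT6 (9.25 CPM) and chow light feeding at ZT18 (7.39 CPM) and a low one in chow dark feeding at ZT6 (2.39 CPM). Acadm had high libraries in HFD light feeding at ZT14 (12.3 CPM) and chow ad libitum at ZT6 (19.4 CPM) and low ones in HFD dark feeding at ZT18 (5.95 CPM) and chow ad libitum at ZT2 (7.73 CPM). Hadha had low libraries in chow dark feeding at ZT10 (82.7 CPM) and ZT14 (88.5 CPM).

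The difference between dark and light phase was itself different between light and dark feeding, by the product term in edgeR, for Hadha on chow (log2 -0.24) and for Pdk4 (-0.97), Hadha (-0.13), Cpt1a (0.25) and Ucp2 (0.57) on HFD.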

How the results depend on the processing

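Over all fits, 245 counts of called genes stayed within 1.5 times and 39 moved. Of single-gene values, 2207 stayed on their side of the threshold, 65 lost a call and 45 gained one. Another 5, called in the main fit, turned in sign and lost that call as well. Turns of values called in neither fit were not counted, such as Pdk4 for diet under dark feeding with marker scores (0.06 to -0.37). The 5 counted turns came with marker scores: diet under dark feeding for Angptl4 (0.25) and Ucp2 (0.12), diet under light feeding for Acadl (0.18) and Hadha (0.00 after rounding), and the HFD phase swing of Ucp2 (-0.31).

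With marker scores the genes called of 8 were 0 for diet under light, dark and ad libitum feeding (in place of 3, 4 and 1), 0, 1 and 1 for the rhythm in HFD dark feeding, HFD ad libitum and chow dark feeding (in place of 3, 4 and 2), and 0 and 2 for the phase swing on HFD and chow (in place of 4 and 1). With a spline of title number they were 0, 1 and 1 for the same 3 rhythms and 0 and 2 for the phase swing; over all genes that spline left 8 calls in the HFD phase swing and 33 in the HFD dark feeding rhythm. With each time left out in turn the calls ran from 1 to 4 for diet under light feeding, 2 to 4 for diet under dark feeding, 0 to 2 for the interaction of diet and light feeding, 0 to 5 for the phase swing on HFD and 1 to 3 on chow. For the rhythm they ran from 0 to 3 in HFD light feeding, 1 to 5 in HFD ad libitum, 0 to 2 in chow light feeding, 1 to 3 in chow dark feeding and 0 to 1 in chow ad libitum. The rhythm in chow light feeding had 1 call in place of 0 with DESeq2, with either FPKM pseudocount, with time as separate levels and without the libraries that stood apart. Over all genes DESeq2 called 3296 in that rhythm and edgeR 2904. With time as separate levels, HFD light feeding had 2 calls in place of 0 and chow dark feeding 4 in place of 2. The phase swing on chow had 2 calls with either FPKM pseudocount and with cosine and sine by schedule. The ZT2 difference of Pdk4 between light and dark feeding was 1.16 on HFD with marker scores (1.61 without). On chow it was 1.54 with marker scores (1.27 without) and 1.09 to 1.48 with each library left out. For the other counts of called genes in this paragraph the share of all genes is not given. Whether the 8 genes stand apart in those fits is therefore not known. The cause of these changes was not tested.

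Pdk4 and Angptl4, at a mean of 14.6 and 8.69 counts per library, limit single libraries most. Counting by time and group rests on 5 to 7 libraries. Diet cannot be told apart from any batch that followed the title numbers, and Zeitgeber time only in part.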

Other observations

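Single genes near the pathway that were not among the 8 had a diet effect under light feeding that differed from that under ad libitum feeding, by the interaction term in edgeR over all genes. The term was negative for Fabp5 (log2 -0.69, adjusted p = 0.00129), Acacb (-0.67, adjusted p = 0.00783) and Ppara (-0.48, adjusted p = 0.00768). It was positive for Pdk2 (0.25, adjusted p = 0.00352) and Acsl3 (0.14, adjusted p = 0.031). A negative term means that the log2FC of HFD over chow was lower under light than under ad libitum feeding, and does not give the sign of either. Of 13 other PPAR targets 2 passed, of 12 PPAR receptors and partners 1, and of 16 mitochondrial beta-oxidation genes 0, against 9.58% of all genes, so that these lists do not stand apart. The counts for the lists that hold Acacb, Pdk2 and Acsl3 are not given here. On HFD, ad libitum and light feeding differed in title number, and the interaction cannot be told apart from a batch that followed it. In the same comparison 10 of 12 astrocyte, 5 of 9 endothelial and 5 of 6 mural cell markers passed, each with a negative term, and 0 of 16 microglia markers. The part of these cell types in the gene differences was not tested.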
